A study of Mus musculus with 14 samples.

Results

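Transcripts of the insulin-like growth factor (IGF) system were followed in mouse hearts through 9 genes: the ligands Igf1 and Igf2, the receptors Igf1r and Igf2r, and the binding proteins Igfbp3, Igfbp4, Igfbp5, Igfbp6 and Igfbp7. The genes were chosen by name, with earlier results of these data known, and their Ensembl identifiers were matched to mouse symbols. All 9 had a row in every count table and passed the filter on low counts, so they are 9 of the 15651 genes tested and of the 51912 in the tables. The series concerns Clk3, a kinase that phosphorylates splicing factors, in hypertrophy of the heart. It holds 14 libraries of poly(A) RNA from whole heart tissue of C57BL/6J mice that were wild type or labelled as Clk3 knockout (KO), after sham surgery or TAC, taken here as transverse aortic constriction, which loads the left ventricle with pressure. There were 4 wild-type sham and 4 KO sham libraries, each group with 2 from mice of 11 weeks and 2 from mice of 10 weeks. There were also 2 wild-type TAC and 4 KO TAC libraries, all from mice of 10 weeks. How long TAC lasted, the sex of the mice and the kind of knockout are not in the labels. Nor is it stated whether libraries are from separate animals, and p-values here measure only how far these samples spread, part of which may be technical.

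IGF1 and IGF2 are secreted peptides that drive growth through the type 1 IGF receptor, a receptor tyrosine kinase that signals to PI3K, AKT and mTOR and is known for its part in growth of the heart muscle. The type 2 receptor has no kinase: it takes up IGF2 and carries it to the lysosome, along with enzymes tagged with mannose 6-phosphate. IGF-binding proteins hold the ligands outside the cell, and proteases that cut them set the ligands free. Much circulating IGF1 comes from the liver under growth hormone, while the transcripts measured here are those made in the heart itself.

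After TAC, transcripts of 2 binding proteins, Igfbp6 and Igfbp7, rose in both genotypes by 1.64-fold to 2.08-fold, and Igf1 rose 2.35-fold in wild type. Of the 2 wild-type TAC libraries, 1 has a label in doubt, as given below. Without it the wild-type log2 changes of Igf1, Igfbp7 and Igfbp6 were 0.79, 0.78 and 0.76, from 1.23, 1.06 and 0.71. In sham hearts Igfbp6 was lower in KO, at 0.66 of the wild-type level. That call lay near the threshold and was lost in 10 of 14 fits that each left out a library. Neither receptor passed the test in any comparison. The starts of the Igfbp7 and Igfbp6 genes are shown first because these genes moved after TAC in both genotypes. RefSeq promoter windows (GRCm38.p6) were found for all 9 members, and the windows below are the 250 bases before the RefSeq start, written 5′ to 3′ on the gene's strand. Igfbp7 lies on the minus strand (chr5:77408046-77408295) and Igfbp6 on the plus strand (chr15:102143936-102144185). Neither window holds an annotated GENCODE exon. Capitals mark matches, on either strand, to the GC box GGGCGG in Igfbp7 and to the TATA box TATAAA, here read on the other strand, in Igfbp6.
Igfbp7: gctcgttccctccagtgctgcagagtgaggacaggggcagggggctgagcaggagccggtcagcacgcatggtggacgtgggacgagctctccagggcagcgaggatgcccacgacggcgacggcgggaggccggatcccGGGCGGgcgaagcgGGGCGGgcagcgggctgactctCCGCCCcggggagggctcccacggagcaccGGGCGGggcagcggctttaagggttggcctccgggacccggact
Igfbp6: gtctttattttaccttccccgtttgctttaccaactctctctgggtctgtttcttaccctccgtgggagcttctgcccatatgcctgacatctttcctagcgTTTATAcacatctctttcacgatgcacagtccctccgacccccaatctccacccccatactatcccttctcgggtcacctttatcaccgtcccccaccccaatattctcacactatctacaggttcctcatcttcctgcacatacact
The Igfbp7 window held 4 GC boxes, at 110, 96, 74 and 44 bases before the start, with 26 CpG dinucleotides against a median of 6 over all windows. Of 32536 distinct RefSeq windows of the same length, 33% held at least 1 GC box. The Igfbp6 window held 7 CpG dinucleotides and no GC box. Its match to TATAAA began 148 bases before the RefSeq start, and 12.3% of windows held this motif. Searched the same way on both strands, neither window held the AP-1 site TGANTCA (6.73% of windows), the MCAT element GGAATG (12.6%), the FOXO site TGTTTAC (3.17%), the E-box CACGTG (6.04%) or a CArG box (1.48%). The GENCODE start of Igfbp6 lies 176 bases downstream of this window, and that of Igfbp7 4 bases downstream. These matches describe letters and not binding.

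Gene counts ranged from 11385818 to 20369637 per library. The check of the targeted gene set one library apart. Clk3 was at 73.2 to 96.0 CPM (counts scaled to equal library totals, with TMM scaling) in the other 5 wild-type libraries and at 50.8 to 67.4 CPM in the 8 KO libraries, but the library labelled wild-type TAC 1 had 54.2 CPM. That library also had the pseudogene Gm8730 at 66.8 CPM, where the KO libraries had 57.4 to 67.1 and the other wild-type libraries 1.26 to 1.63. Its label is therefore in doubt, and for the members the wild-type TAC results are given with and without it. Without it the wild-type TAC group is 1 library, whose spread is taken from the other groups. Libraries also differed in clock genes: Arntl was at 4.41 to 9.38 CPM in 7 of the 8 sham libraries and 24.3 in KO sham 4, and at 18.2 to 23.7 CPM in 5 of the 6 TAC libraries and 9.02 in KO TAC 3. Time of day at collection is absent from the labels.

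**Figure D1:**
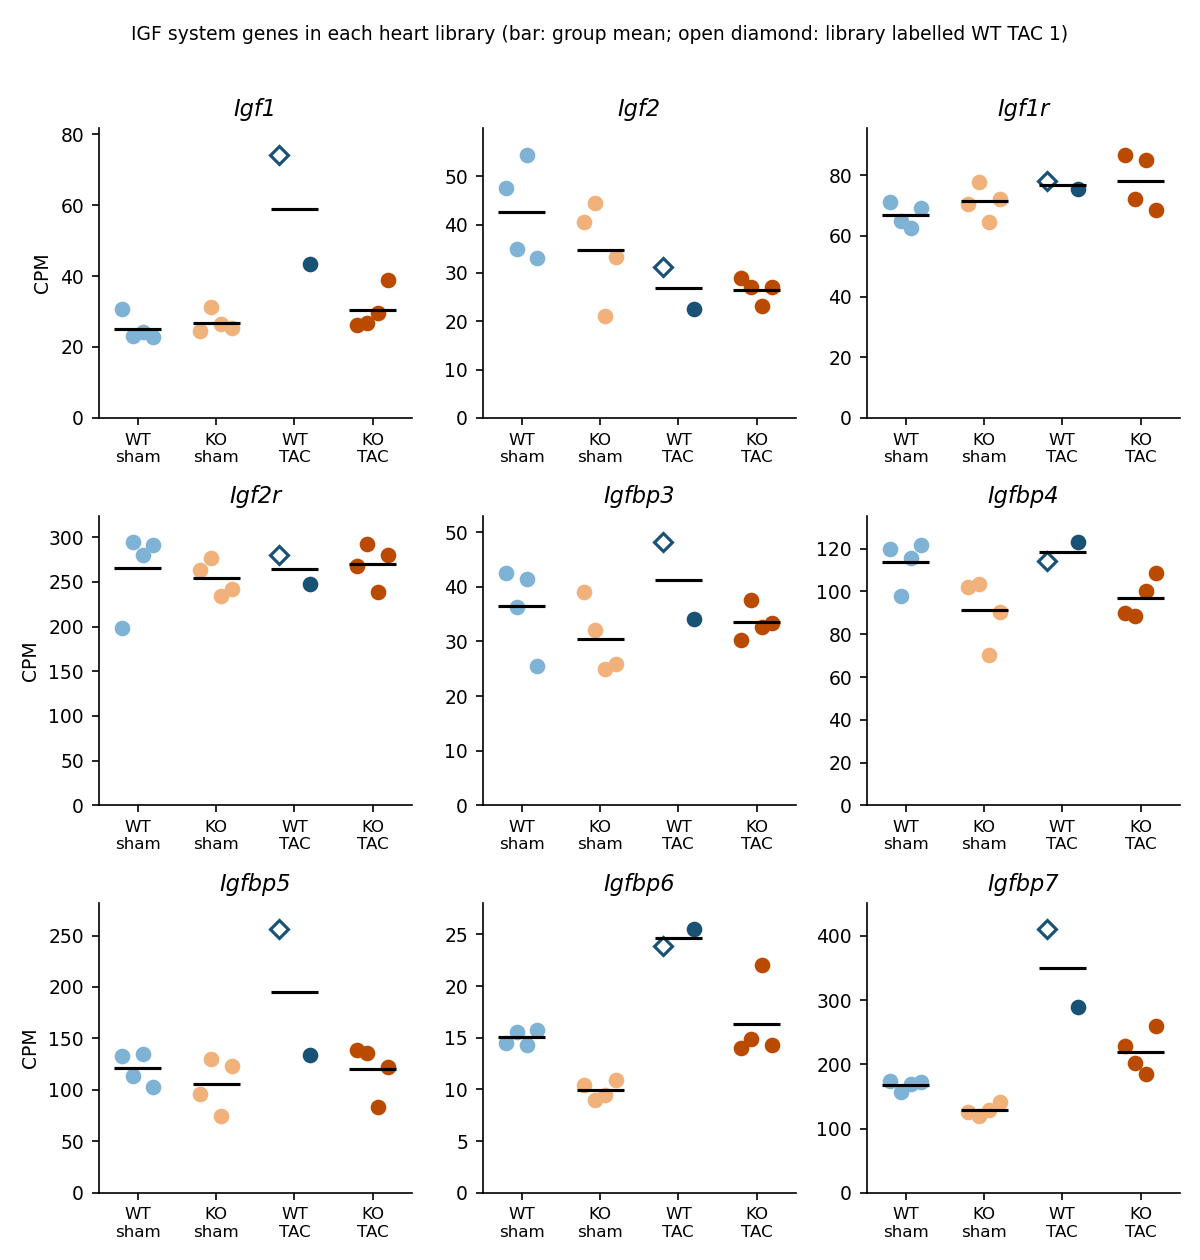
Level of each of the 9 genes in CPM (vertical axis, from 0, 1 scale per panel) in every library, by genotype and surgery (horizontal axis). Each point is a library, bars are group means, and the open diamond is the library labelled wild-type TAC 1. Igfbp7 in all TAC libraries lies above all sham libraries (184.7 to 410.1 against 119 to 173.9 CPM), while the groups overlap for Igf2r.

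The plot of levels by library shows that the members differed far more from gene to gene than between groups. Divided by exon length, Igfbp7 was the most abundant in wild-type sham hearts, at 139 CPM per kilobase ± 6.34 (SD, n = 4). Igf2r followed at 28.6 ± 4.89, then Igfbp4 at 25.8 ± 2.46 and Igfbp5 at 20.2 ± 2.63, and in this run each gene's library values overlapped those of the next. Igfbp6 at 13.5 ± 0.678 and Igfbp3 at 11.6 ± 2.48 also overlapped, as did Igfbp3 and Igf2, which was at 7.44 ± 1.78. Igf1r at 3.99 ± 0.238 lay below Igf2, and Igf1 at 2.54 ± 0.372 CPM per kilobase was the lowest of the 9 with no overlap. Igfbp7 remained first in every group and made up 60.9% to 76.3% of the summed level per kilobase of the 5 binding proteins in single libraries. In wild-type TAC, where the mean of Igf1 (5.94 ± 2.20 CPM per kilobase, n = 2) was above that of Igf2 (4.68 ± 1.08), their ranges overlapped, and in the other 3 groups Igf1 was last.

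Of the ligands, Igf1 (chr10:87858265-87937042, plus strand) encodes the growth factor most tied to growth hormone and to postnatal growth. Its level was 30.6, 23.2, 24.1 and 22.7 CPM in the 4 wild-type sham libraries and 74.2 and 43.4 CPM in wild-type TAC 1 and 2. Both TAC libraries were above all 4 sham libraries. Igf1 rose 2.35-fold (log2 change 1.23 ± 0.19 SE, edgeR quasi-likelihood adjusted p = 0.000661). Leaving out wild-type TAC 1, the log2 change was 0.79 ± 0.19 (edgeR adjusted p = 0.0386). In sham hearts Igf1 differed between genotypes by 0.10 (95% interval −0.25 to 0.45, edgeR adjusted p = 0.784). In KO the 4 sham libraries were at 24.6, 31.2, 26.4 and 25.4 CPM and the 4 TAC libraries at 26.2, 26.8, 29.6 and 38.9 CPM. These groups overlapped, and the log2 change of 0.18 (95% interval −0.17 to 0.53, edgeR adjusted p = 0.496) did not pass the test.

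Between genotypes after TAC, Igf1 was lower in KO by a log2 change of −0.95 ± 0.19 (edgeR adjusted p = 0.0198), and all 4 KO libraries were below both wild-type libraries. This call rests on wild-type TAC 1: without it the log2 difference was −0.51 ± 0.20 and the edgeR adjusted p 0.303. It was also lost without KO TAC 1 (edgeR adjusted p = 0.0537) and without KO TAC 2 (edgeR adjusted p = 0.0756). The difference between the TAC effects of the genotypes was −1.05 ± 0.25 on the log2 scale for Igf1, the largest of the 9 members, with an unadjusted p of 0.000743 and an edgeR adjusted p of 0.298. It was −0.61 when wild-type TAC 1 was left out ± 0.24 (edgeR adjusted p = 0.824). The difference between the genotypes' responses thus did not pass the test with or without that library.

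Igf2 (chr7:142650766-142666816, minus strand) encodes the fetal growth factor of the pair and is imprinted, with the paternal copy active. It was at 47.6, 35.0, 54.5 and 33.2 CPM in wild-type sham and at 31.2 and 22.5 CPM in wild-type TAC 1 and 2. In KO it was at 40.6, 44.4, 21.1 and 33.2 CPM in sham and at 28.9, 27.04, 23.09 and 27.08 CPM after TAC. The 8 sham libraries thus spanned 21.1 to 54.5 CPM and the 6 TAC libraries 22.5 to 31.2 CPM. The log2 changes after TAC were −0.67 (95% interval −1.20 to −0.13, edgeR adjusted p = 0.101) in wild type and −0.40 (−0.83 to 0.04, edgeR adjusted p = 0.211) in KO, and neither passed the test. With wild-type TAC 1 left out the wild-type log2 change was −0.92 ± 0.33 (edgeR adjusted p = 0.168). Between genotypes the Igf2 log2 difference was −0.29 in sham (edgeR adjusted p = 0.468) and −0.02 after TAC (edgeR adjusted p = 0.985), the latter 0.24 without wild-type TAC 1 (edgeR adjusted p = 0.804). Its exons overlap those of Gm49394 on the same strand, which has no row in the tables, and 98 bases of Igf2os on the opposite strand. Igf2 counts may hold reads of these genes. Igf2os itself had group means of only 0.17 to 0.34 CPM.

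The receptors stayed within narrow ranges. Igf1r (chr7:67952827-68233668, plus strand), the kinase that both ligands signal through, was at 71.2, 64.8, 62.6 and 69.3 CPM in wild-type sham and 70.6, 77.8, 64.7 and 72.3 CPM in KO sham. Its levels after TAC were 78.3 and 75.4 CPM in the wild-type libraries, while KO libraries had 86.8, 72.1, 84.9 and 68.6 CPM. Both wild-type TAC libraries were above all wild-type sham libraries, but the log2 change of 0.20 (95% interval −0.02 to 0.42, edgeR adjusted p = 0.232) did not pass the test, and neither did that of 0.13 in KO (−0.05 to 0.31, edgeR adjusted p = 0.322). The wild-type change of Igf1r without wild-type TAC 1 was 0.17 (edgeR adjusted p = 0.587). Between genotypes Igf1r differed by 0.09 in sham (edgeR adjusted p = 0.589) and by 0.02 after TAC (edgeR adjusted p = 0.954), or 0.05 with wild-type TAC 1 left out. Igf2r (chr17:12682406-12769664, minus strand), the clearance receptor, was at 198 CPM in wild-type sham 1 and at 279.7 to 294.5 CPM in the other 3 libraries of that group. It was at 233.8 to 277.1 CPM in KO sham, 280.5 and 247.4 CPM in wild-type TAC 1 and 2, and 238.8 to 291.8 CPM in KO TAC. Its 95% intervals for the log2 change after TAC were −0.30 to 0.27 in wild type and −0.15 to 0.32 in KO, and those for KO against wild type were −0.30 to 0.17 in sham and −0.25 to 0.32 after TAC. Leaving out wild-type TAC 1, Igf2r changed by −0.11 after TAC in wild type (edgeR adjusted p = 0.833) and differed by 0.13 between genotypes after TAC (edgeR adjusted p = 0.807).

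**Figure D2:**
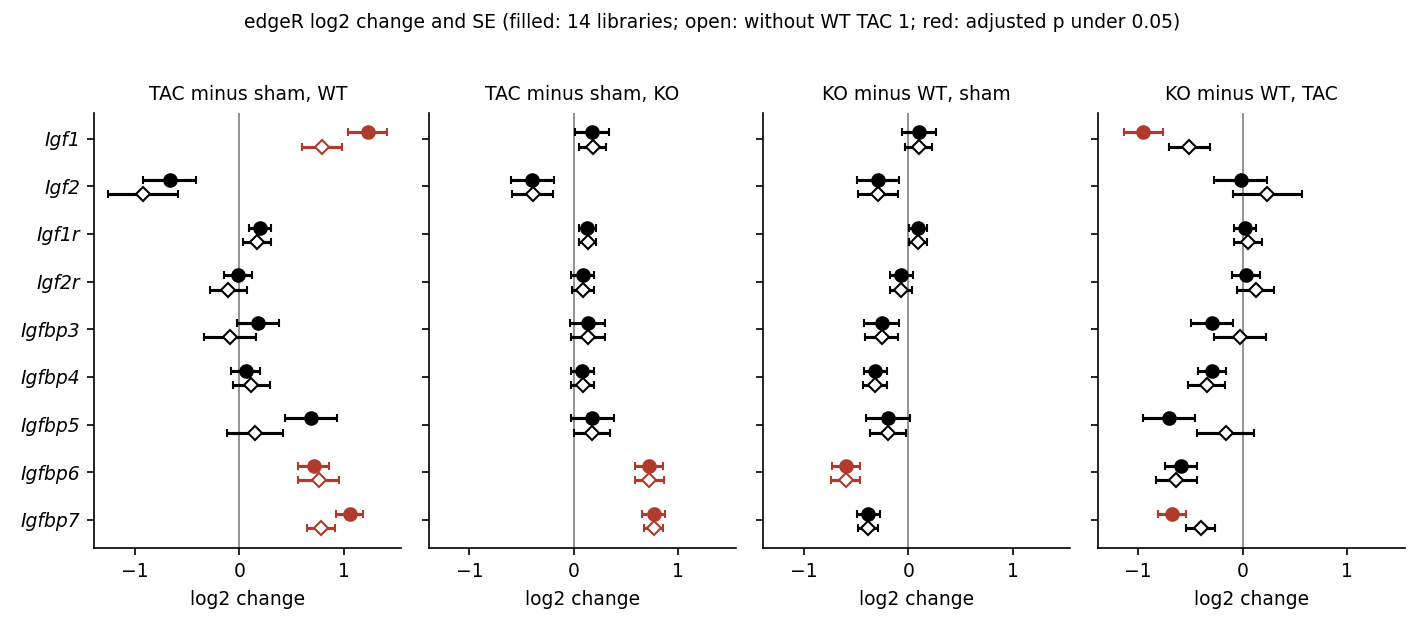
edgeR log2 change with its standard error (horizontal axis) for the 9 genes (rows) in 4 comparisons (panels). Filled circles use all 14 libraries, open diamonds leave out the library labelled wild-type TAC 1, and red marks an adjusted p under 0.05. Igfbp6 and Igfbp7 lie right of 0 in both TAC panels with and without that library, while Igf1 and Igfbp7 lose their red mark in the last panel when it is left out.

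Among the binding proteins, Igfbp7 (chr5:77349240-77408041, minus strand) encodes a secreted protein of vessels and matrix with low affinity for IGFs. It was at 173.9, 156.8, 169.3 and 171.9 CPM in wild-type sham and at 410.1 and 288.9 CPM in wild-type TAC 1 and 2. In KO it was at 125.5, 119.0, 128.8 and 141.4 CPM in sham and at 227.9, 202.4, 184.7 and 259.6 CPM after TAC. In each genotype all TAC libraries were above all sham libraries. Igfbp7 rose 2.08-fold in wild type (log2 change 1.06 ± 0.13, edgeR adjusted p = 0.000116) and 1.70-fold in KO (0.76 ± 0.11, edgeR adjusted p = 0.00139). Without wild-type TAC 1 the wild-type log2 change was 0.78 ± 0.14 (edgeR adjusted p = 0.00596) and the KO value was 0.77. Among 10-week libraries alone the Igfbp7 log2 change was 1.03 in wild type (edgeR adjusted p = 0.00715) and 0.69 in KO (edgeR adjusted p = 0.0814), with 2 sham libraries per genotype left. With a clock gene score in the fit the KO value was 0.59 (edgeR adjusted p = 0.0699).

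KO hearts had less Igfbp7 than wild-type hearts after both surgeries, with no overlap between libraries. In sham the log2 difference was −0.38 ± 0.11 (edgeR adjusted p = 0.0980), which did not pass the test. After TAC it was −0.68 ± 0.13 (edgeR adjusted p = 0.0162), which did, but without wild-type TAC 1 it was −0.40 ± 0.14 (edgeR adjusted p = 0.265). It was also lost without KO TAC 2 (edgeR adjusted p = 0.0640). The TAC effects of the genotypes differed by −0.29 ± 0.17 with all libraries and by −0.02 ± 0.17 without wild-type TAC 1, on the log2 scale (edgeR adjusted p = 0.824 and 0.995). In 85 exon bases Igfbp7 overlaps Polr2b on the opposite strand, and the strand setting of the counting is not given in the sources used here.

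Igfbp6 (chr15:102144362-102149511, plus strand) encodes the binding protein that prefers IGF2 over IGF1. It was at 14.5, 15.6, 14.3 and 15.8 CPM in wild-type sham and at 10.4, 8.96, 9.51 and 10.9 CPM in KO sham. The 2 wild-type TAC libraries had 23.9 and 25.5 CPM, and KO TAC 1 to 4 had 14.04, 14.87, 22.01 and 14.33 CPM. These values rest on 117 to 405 counts per library. In each genotype all TAC libraries were above all sham libraries, and within each surgery all KO libraries were below all wild-type libraries. The KO TAC library at 22.0 CPM stood apart from the other 3 of its group and is the TAC library with the low Arntl level. Its summed Myh4, Acta1 and Tnnt3 was 296.7 CPM, within the KO sham range of 190.8 to 312.4. KO TAC 1, 2 and 4 had 1619, 1366 and 1525 CPM, and Acta1 was called higher after TAC in both genotypes. Its sum of 6 fibroblast markers, 1283 CPM, was within the KO TAC range of 1161 to 1379 and above KO sham. Why this library differs was not tested.

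Igfbp6 rose 1.64-fold after TAC in wild type (log2 change 0.71 ± 0.15, edgeR adjusted p = 0.00588) and 1.65-fold in KO (0.72 ± 0.13, edgeR adjusted p = 0.0041). The wild-type log2 change without wild-type TAC 1 was 0.76 ± 0.19 (edgeR adjusted p = 0.0470). Among 10-week libraries alone Igfbp6 changed by 0.71 in wild type and 0.68 in KO, and neither value passed (edgeR adjusted p = 0.0624 and 0.124). In sham hearts it was lower in KO by −0.60 ± 0.13 on the log2 scale (edgeR adjusted p = 0.0449). That call lies near the threshold. Leaving out each library in turn gave −0.55 to −0.66, and the call was lost in 10 of 14 fits, those without wild-type sham 2, 3 or 4, any KO sham library, or KO TAC 1, 2 or 4 (edgeR adjusted p up to 0.142). After TAC the difference was about as large, −0.59 ± 0.15, with an edgeR adjusted p of 0.0678, and without wild-type TAC 1 it was −0.63 ± 0.20 (edgeR adjusted p = 0.215). The difference after TAC was called with DESeq2, with no filter on low counts, and without KO TAC 3, where it was −0.78. The TAC effects of the genotypes differed by 0.01 on the log2 scale, with a 95% interval of −0.41 to 0.43, and by −0.03 without wild-type TAC 1.

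Igfbp5 (chr1:72857932-72874884, minus strand), which binds matrix as well as IGFs, was at 255.9 CPM in wild-type TAC 1 and 134.0 CPM in wild-type TAC 2, against 102.7 to 135.1 CPM in wild-type sham. Only the library in doubt stood above the sham range. The log2 change of 0.69 ± 0.25 (edgeR adjusted p = 0.0798) did not pass the test, and without that library it was 0.15 ± 0.27 (edgeR adjusted p = 0.854). In KO, Igfbp5 was at 74.7 to 129.7 CPM in sham and 83.4 to 138.4 CPM after TAC, a log2 change of 0.18 (edgeR adjusted p = 0.604). Between genotypes Igfbp5 differed by −0.19 in sham (edgeR adjusted p = 0.650). After TAC the difference was −0.70 ± 0.25 (edgeR adjusted p = 0.185), which did not pass the test although it was as large as that of Igfbp7. It rests on the library in doubt: it was −0.16 without wild-type TAC 1 (edgeR adjusted p = 0.843), and −1.10 without wild-type TAC 2, where it was called (edgeR adjusted p = 0.0360). Igfbp4 (chr11:99041244-99054392, plus strand), an inhibitor of IGF action that the protease PAPP-A cuts, was at 98.0 to 121.8 CPM in wild-type sham and 114.0 and 123.1 CPM in wild-type TAC 1 and 2. It was at 70.2 to 103.3 CPM in KO sham and 88.7 to 108.4 CPM in KO TAC. Its log2 differences between genotypes were −0.32 ± 0.11 in sham (edgeR adjusted p = 0.152) and −0.29 ± 0.13 after TAC (edgeR adjusted p = 0.325), or −0.35 without wild-type TAC 1 (edgeR adjusted p = 0.437). After TAC Igfbp4 changed by 0.06 in wild type, 0.11 without that library, and by 0.08 in KO, and none of these passed. Igfbp3 (chr11:7206086-7213923, minus strand), the main carrier of IGFs in serum, overlapped between all groups. Its libraries ranged from 24.9 to 48.2 CPM, with the highest value in wild-type TAC 1. Igfbp3 changed after TAC by 0.18 in wild type, −0.09 without wild-type TAC 1, and 0.14 in KO. Its genotype differences were −0.25 in sham and −0.30 after TAC, or −0.03 without that library, and none of these passed (lowest edgeR adjusted p = 0.445).

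Set against all genes, the members called were 3 of 9 higher and 0 lower after TAC in wild type, where 6.91% of all tested genes were called higher and 5.30% lower. They were 2 of 9 higher and 0 lower after TAC in KO, where the shares were 6.73% and 6.26%. Between genotypes in sham, 1 of 9 was lower in KO and 0 higher, against 0.313% of all genes lower and 0.575% higher. After TAC, 2 of 9 were lower in KO and 0 higher, against 1.11% and 0.377%. The median log2 change of the members was 0.20, 0.14, −0.25 and −0.30 in these 4 comparisons, where the median over all tested genes lay between −0.01 and 0.00. Without wild-type TAC 1 the members' medians were 0.15, 0.14, −0.25 and −0.16, and 3, 2, 1 and 0 members were called, against 3.16%, 14.2%, 1.36% and 0.284% of all genes in that fit. In the interaction edgeR called 0 members, and 0% of all genes higher and 0.0192% lower. Igf1 alone had an unadjusted p under 0.05 there, and DESeq2 called it. The TAC comparisons and the genotype comparisons share libraries, so their calls are not independent of each other. The members were chosen with earlier results of these data known, so these counts describe them and do not test them against all genes.

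Because Igfbp6 and Igfbp7 showed the same direction in both genotypes and both surgeries, a fit with 1 term for surgery and 1 for genotype was added after these values were seen. It is a description of effects averaged over the groups and, by construction, assumes that the 2 effects add. In it the surgery term called 4 of 9 members, 3 higher (Igf1, Igfbp6 and Igfbp7) and 1 lower (Igf2), against 14.4% of all genes higher and 13.6% lower. Igf2 fell by 0.50 on the log2 scale (SE 0.16, edgeR adjusted p = 0.0258). Igfbp7 rose by 0.88 ± 0.09 (edgeR adjusted p = 1.09e-05), Igfbp6 by 0.72 ± 0.10 (edgeR adjusted p = 8.16e-05) and Igf1 by 0.63 ± 0.17 (edgeR adjusted p = 0.0133). The genotype term called 3 members lower in KO and 0 higher, against 3.74% and 3.48% of all genes. These were Igfbp6 at −0.59 ± 0.10 (edgeR adjusted p = 0.00398), Igfbp7 at −0.50 ± 0.09 (edgeR adjusted p = 0.00603) and Igfbp4 at −0.31 ± 0.08 (edgeR adjusted p = 0.0356).

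Leaving out each of the 14 libraries in turn from this added fit kept the surgery calls of Igf1, Igfbp6 and Igfbp7 and the genotype calls of Igfbp6 and Igfbp7 in all 14 fits. For Igf1 the surgery term averages a log2 change of 1.23 in wild type and one of 0.18 in KO, where it was not called. It therefore does not show a rise of Igf1 in KO. Without wild-type TAC 1 the surgery effect on Igf1 was 0.37 (edgeR adjusted p = 0.0459) and the genotype difference in Igfbp7 was −0.39 (edgeR adjusted p = 0.0106). The Igf2 call was lost in 3 of 14 fits, namely those without KO sham 1, KO sham 2 or wild-type TAC 2. The Igfbp4 call was lost in 7 of 14, those without wild-type sham 3 or 4, KO sham 3 or 4, wild-type TAC 2, or KO TAC 1 or 2.

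Since the tissue is whole heart, fewer cells of a type and less RNA per cell cannot be told apart. Levels of cell type markers are given beside the members that moved. The cardiomyocyte markers Myh6, Actc1, Tnnt2, Tnni3, Ryr2 and Pln summed to 28220 to 32790 CPM in wild-type sham and 30400 to 33420 CPM in KO sham. After TAC their sum was 24820 and 29840 CPM in wild-type TAC 1 and 2 and 26050 to 33720 CPM in KO. Ryr2 was called lower after TAC in both genotypes with all libraries, and the other 5 were not called. The median log2 change of the 6 was −0.17 in wild type and −0.18 in KO. The 6 fibroblast markers Col1a1, Col1a2, Dcn, Lum, Pdgfra and Tcf21 summed to 926.6 to 1246 CPM in wild-type sham and 914.3 to 1026 CPM in KO sham. After TAC their sum was 1808 and 2205 CPM in wild type and 1161 to 1379 CPM in KO. Of the 6, Col1a1, Col1a2 and Lum rose in wild type and Col1a1 and Col1a2 in KO, while Dcn, Pdgfra and Tcf21 passed in neither. The Lum call was lost without wild-type TAC 1 (0.73, edgeR adjusted p = 0.215), and those of Col1a1 and Col1a2 were kept. In sham, Col1a2 was at 201 to 227.8 CPM in wild type and 143.9 to 169.3 CPM in KO, without overlap (log2 difference −0.41, edgeR adjusted p = 0.0555, and 0.0424 without wild-type TAC 1), and Col1a1 had means of 134.5 and 93.14 CPM (−0.53, edgeR adjusted p = 0.0609). Col1a1 and Col1a2 were also lower in KO than in wild type after TAC, by −1.19 and −1.14 on the log2 scale, and by −1.16 and −0.998 without wild-type TAC 1. The 8 macrophage markers Adgre1, C1qa, C1qb, Cd68, Csf1r, Mrc1, Lyve1 and Cx3cr1 summed to 209.5 to 238.5 CPM in wild-type sham, 159.4 to 209.5 in KO sham, 260 and 334.8 in wild-type TAC and 220.3 to 283.7 CPM in KO TAC. Of these, C1qa, C1qb and Cx3cr1 rose after TAC in wild type, and the same 3 and Cd68 in KO. Without wild-type TAC 1 the wild-type log2 changes of C1qa, C1qb and Cx3cr1 were 0.31, 0.44 and 0.9985, from 0.50, 0.64 and 1.28 with all libraries. These 3 wild-type calls were lost without the library in doubt, which leaves 1 wild-type TAC library. The 4 KO calls compare groups that do not hold it.

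Vessel markers are set beside Igfbp7 and Igfbp6 as well. The 4 smooth muscle markers Acta2, Myh11, Tagln and Cnn1 summed to 198.6 to 426.9 CPM in wild-type sham and 171.1 to 337.5 in KO sham. After TAC they summed to 287.5 and 297.3 CPM in wild type and 254.4 to 474 CPM in KO. Their median log2 difference between KO and wild type was −0.66 in sham and 0.15 after TAC. After TAC they changed by a median of 0.02 in wild type and 0.70 in KO. None of the 4 passed in any comparison. The 6 endothelial markers Pecam1, Cdh5, Kdr, Tie1, Emcn and Egfl7 summed to 1107 to 1592 CPM in wild-type sham, 1001 to 1285 in KO sham, 1409 and 1445 in wild-type TAC and 1078 to 1461 CPM in KO TAC. Of these only Pecam1 passed, higher after TAC in KO by 0.35 (edgeR adjusted p = 0.0318). The median log2 difference of the 6 between KO and wild type in sham was −0.23. The 5 pericyte markers Pdgfrb, Cspg4, Rgs5, Kcnj8 and Abcc9 summed to 1662 to 1790 CPM in wild-type sham, 1812 to 1883 in KO sham, 1471 and 1961 in wild-type TAC and 1501 to 1880 CPM in KO TAC, and Rgs5 dominates this sum. In sham their median log2 difference was −0.36: Pdgfrb, Cspg4 and Kcnj8 were lower in every KO library than in every wild-type library, Rgs5 overlapped and Abcc9 was higher in every KO library. None of the 5 passed between genotypes in sham with all libraries (edgeR adjusted p = 0.0569 for Cspg4), and Kcnj8, at 56.3 to 61.15 against 68.31 to 84.32 CPM, passed without wild-type TAC 1 (−0.36, edgeR adjusted p = 0.0433). After TAC Abcc9 fell in both genotypes, by 0.56 in wild type and 0.41 in KO, and the wild-type call was lost without wild-type TAC 1 (edgeR adjusted p = 0.125), where Kcnj8 was called lower (−0.55, edgeR adjusted p = 0.0356). The part of such cells in the changes of Igf1, Igfbp6 and Igfbp7 was not tested.

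**Figure D3:**
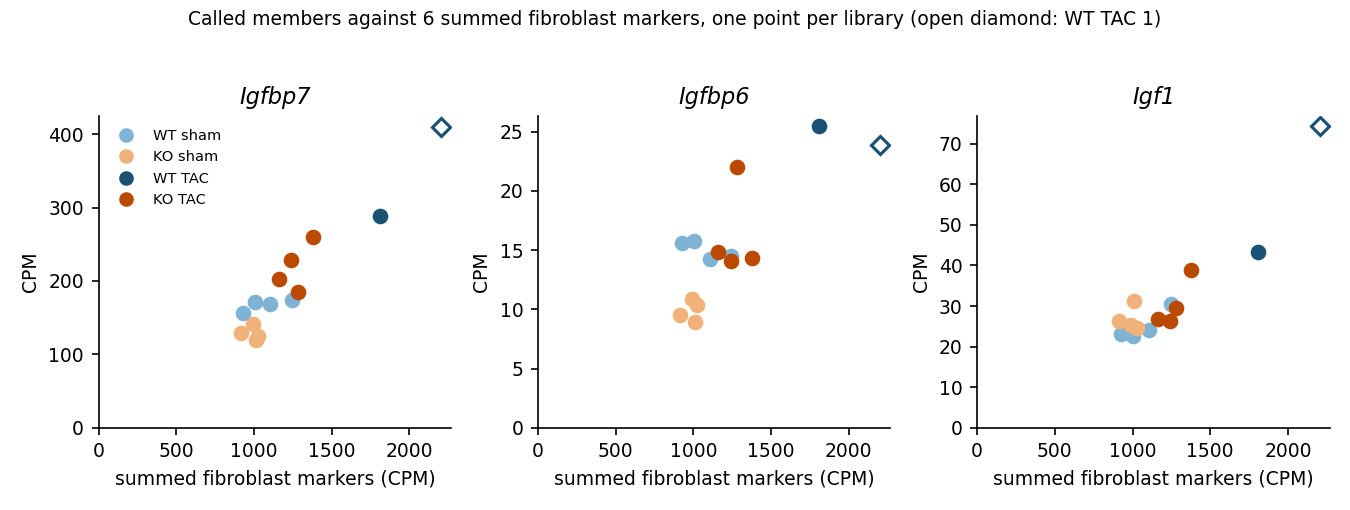
CPM of Igfbp7, Igfbp6 and Igf1 (vertical axes) against the summed CPM of 6 fibroblast marker genes (horizontal axes), with 1 point per library, coloured by group. The open diamond is the library labelled wild-type TAC 1. The 2 wild-type TAC libraries lie furthest right (1808 and 2205 CPM) and hold the highest values of all 3 genes, while the sums of the 2 sham groups overlap, with Dcn the largest part of each.

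In the plot against fibroblast markers the sums of the 2 sham groups overlapped, and Dcn, with means of 568 and 585.7 CPM, makes up most of these sums. Col1a2 was lower in KO sham without overlap, as were Igfbp6 and Igfbp7, but none of the 6 markers was called in sham with all libraries. Their log2 differences were −0.53 for Col1a1, −0.41 for Col1a2 and −0.34 for Tcf21. For Dcn, Lum and Pdgfra they were 0.04, −0.07 and −0.05. By the rule of likeness (Pearson r of log2 CPM as deviations from group means over 14 libraries, among 11019 genes with a mean of at least 5 CPM), the genes most like Igfbp7 were Fstl1 (r = 0.94), Col5a2 (0.93) and Apln (0.93). Those most like Igf1 were Orc3 (0.91), Rpl3 (0.90) and Mplkip (0.89), and those most like Igfbp6 were Bpnt1 (0.89), Eif3a (0.86) and Alpl (0.86). These coefficients are descriptions without a test, since all points share the libraries' depth and tissue makeup. Within groups Igfbp6 and Igfbp7 did not move together, with r = −0.45 over the 14 libraries, while Igf1 and Igfbp7 had r = 0.63 and Igf2 and Igfbp5 r = 0.76.

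The ratio of summed binding proteins, mostly Igfbp7, to ligands was higher in the TAC libraries of both genotypes. The summed level per kilobase of the 5 binding proteins was 18.0 to 25.9 times that of the 2 ligands in wild-type sham libraries and 14.8 to 23.8 times in KO sham. It was 34.4 and 38.9 times in the 2 wild-type TAC libraries and 31.3 to 33.0 times in KO TAC. All 6 TAC libraries were thus above all 8 sham libraries. Igfbp7 dominates this sum, at 60.9% to 76.3% of it in single libraries. The ratio therefore largely restates the rise of Igfbp7. It does not show that the other binding proteins rose over the ligands. The ratio of Igf1 to Igf2 per kilobase was 0.256 to 0.396 in wild-type sham, 0.350 to 0.725 in KO sham, 0.524 to 0.830 in KO TAC, and 1.38 and 1.12 in wild-type TAC. In both wild-type TAC libraries, and in no other, Igf1 was above Igf2 on this scale. These ratios were formed after the members' values were seen and are given without a test.

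The other genes of the pathway were read from 6 lists with 75 genes, of which 68 were tested. After TAC in wild type 15 of the 68 were called, 6 higher and 9 lower. Of all tested genes, 6.91% were called higher there and 5.30% lower. Without the library labelled wild-type TAC 1, 3 of these 15 were still called and no other, where 3.16% of all genes were called. After TAC in KO 11 of 68 were called, 6 higher and 5 lower, against 6.73% of all genes higher and 6.26% lower. The library labelled wild-type TAC 1 is in neither of these KO groups, so leaving it out is no check of these calls. Between genotypes, 1 of 68 was called in sham (Rictor) and 2 of 68 after TAC (Lrp1 and Grb14), and the interaction called 0 with edgeR. Without that library Rictor was still called in sham, and 0 were called after TAC, with Grb14 at 0.36 (edgeR adjusted p = 0.1296, from 0.32 and 0.0328 with all libraries). The sham comparison does not use that library either. Between genotypes the shares of all genes were 0.575% higher and 0.313% lower in sham, and 0.377% and 1.11% after TAC. The KO counts after TAC lie near the shares of all genes, and the lists were chosen with earlier results of these data known.

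Of 7 further carriers and receptors, 5 were tested, with a median log2 change of 0.38 in wild type (0.48 without wild-type TAC 1) and 0.23 in KO. The growth hormone receptor gene Ghr, through which growth hormone induces Igf1, fell in both genotypes, by 0.49 on the log2 scale in wild type (edgeR adjusted p = 0.00719) and by 0.41 in KO (edgeR adjusted p = 0.00729). Its libraries were at 190.2 to 250.5 CPM in sham and 153.2 to 194.2 CPM after TAC. Without wild-type TAC 1 the wild-type log2 change was −0.55 (edgeR adjusted p = 0.0450). Lrp1, an endocytic receptor that also binds IGFBP3, rose in wild type by 0.53 (edgeR adjusted p = 0.00577) and was lower in KO than in wild type after TAC, by −0.56 (edgeR adjusted p = 0.0224). Both Lrp1 calls were lost without wild-type TAC 1 (edgeR adjusted p = 0.0900 and 0.180). Igfbp2 was called higher in KO after TAC (edgeR adjusted p = 0.0141) from 0 to 2 counts per KO sham library to 30, 13, 1 and 20 counts in KO TAC 1 to 4. The KO TAC library with 1 count overlapped the sham libraries. Igfbp1, the liver carrier, had 0 counts in all 14 libraries, and the insulin receptor gene Insr was at 257.5 to 325.1 CPM and passed in no comparison.

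Of 7 proteases and inhibitors that act on binding proteins, 6 were tested, with a median log2 change of 0.07 in wild type (0.36 without wild-type TAC 1) and −0.06 in KO. Adam12, a metalloprotease that cuts IGFBP3 and IGFBP5, rose in both genotypes, by 1.20 in wild type and 1.45 in KO on the log2 scale (edgeR adjusted p = 0.0208 and 0.0049). It had 9 to 28 counts per sham library and 25 to 45 per TAC library, and the wild-type call was lost without wild-type TAC 1 (edgeR adjusted p = 0.173). Htra1, a secreted serine protease, fell in wild type by 0.64 (edgeR adjusted p = 0.000845), and by 0.51 without wild-type TAC 1 (edgeR adjusted p = 0.0356). Stc2, an inhibitor of PAPP-A, fell in KO by 0.61 (edgeR adjusted p = 0.0179). Pappa itself was at means of 1.62 to 2.59 CPM and passed in no comparison.

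Of 32 genes of IGF-1 and insulin receptor signalling, all tested, 6 were called in wild type after TAC, 2 higher and 4 lower. The shares of all genes there were 6.91% higher and 5.30% lower. In KO 3 of the 32 were called, 2 higher and 1 lower, against 6.73% and 6.26% of all genes. The medians were 0.01 in wild type (−0.04 without wild-type TAC 1) and 0.05 in KO on the log2 scale. Eif4ebp1, a repressor of translation under mTOR control, rose in both, by 0.50 in wild type (edgeR adjusted p = 0.0116) and 0.39 in KO (edgeR adjusted p = 0.0198). In wild type, Grb14 (an adaptor that inhibits the insulin receptor) fell by 0.43, Pik3r1 (a regulatory subunit of PI3K) by 0.80, Foxo3 by 0.59 and Akt2 by 0.34. Grb10, an adaptor related to Grb14, rose by 0.51. Without wild-type TAC 1 only the Grb14 call of these 6 wild-type calls was kept (−0.47, edgeR adjusted p = 0.0114), and Pik3r1 was at −0.74 (edgeR adjusted p = 0.0504). In KO, the phosphatase gene Ptpn1 rose by 0.35 (edgeR adjusted p = 0.0247) and Rictor, a subunit of mTOR complex 2, fell by 0.41 (edgeR adjusted p = 0.00973). Rictor was also higher in KO than in wild type in sham, by 0.46 (edgeR adjusted p = 0.0333), at 43.1 to 52.5 against 30.8 to 36.7 CPM, without overlap. The receptor substrates Irs1 and Irs2, the kinases Akt1 and Mtor, and Foxo1 passed in no comparison.

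**Figure D4:**
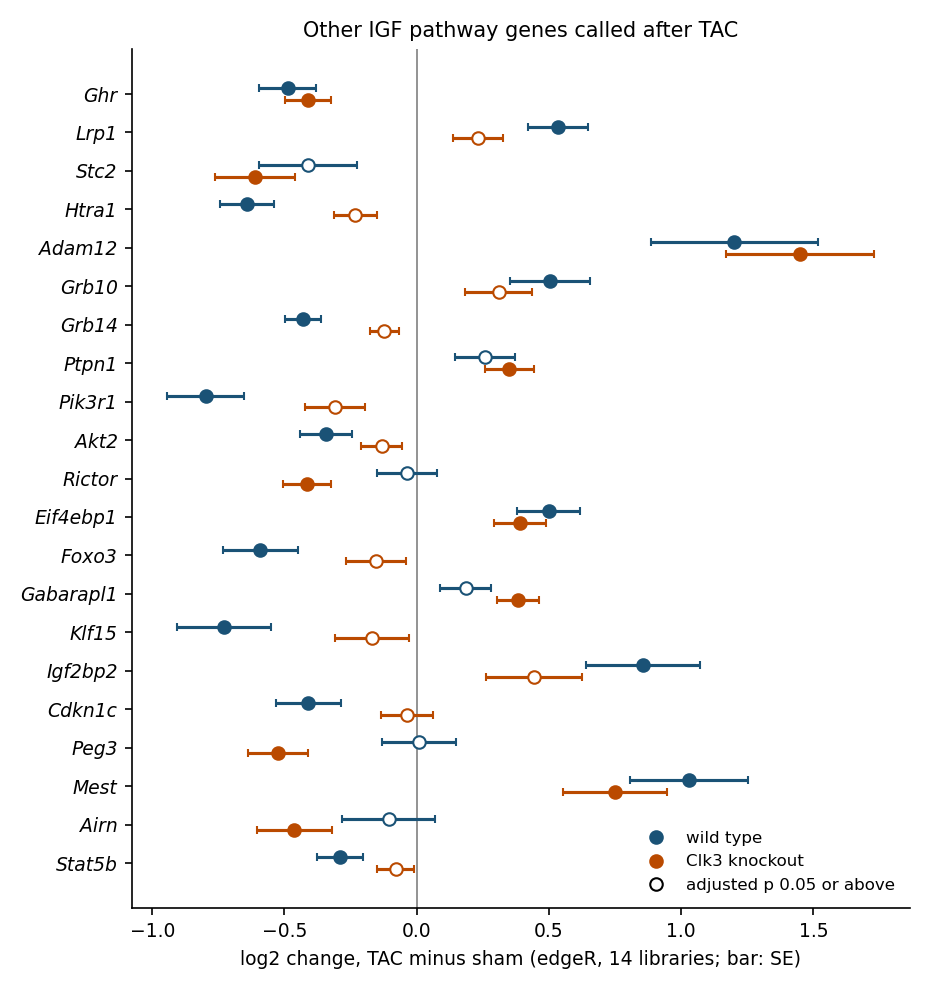
edgeR log2 change after TAC with its standard error (horizontal axis) in wild type (blue) and Clk3 knockout (orange) for the listed pathway genes called in at least 1 genotype, except Igfbp2, whose counts are too low for a stable estimate. Filled points have an adjusted p under 0.05 with all 14 libraries, and open points do not. Ghr lies left of 0 and Adam12, Eif4ebp1 and Mest right of 0 with filled points in both genotypes.

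For the remaining 3 lists, the shares of all genes after TAC were 6.91% higher and 5.30% lower in wild type, and 6.73% and 6.26% in KO. Of 10 genes known as FOXO targets in muscle, Klf15 fell in wild type by 0.73 (edgeR adjusted p = 0.0137) and Gabarapl1 rose in KO by 0.38 (edgeR adjusted p = 0.0074). The atrophy genes Fbxo32 and Trim63, both FOXO targets, passed in no comparison. Of 7 growth hormone signalling genes, Stat5b, the transcription factor downstream of Ghr, fell in wild type by 0.29 (edgeR adjusted p = 0.0405). Of 12 genes of the Igf2 locus, Igf2 mRNA-binding proteins and other imprinted growth genes, 8 were tested. Among them, 2 were called higher and 1 lower in wild type, and 1 higher and 2 lower in KO. Mest rose in both genotypes, by 1.03 and 0.75 (edgeR adjusted p = 0.0066 and 0.0227). Igf2bp2, which binds Igf2 mRNA, rose in wild type by 0.86 (edgeR adjusted p = 0.0166) and Cdkn1c, a cell cycle inhibitor, fell by 0.41 (edgeR adjusted p = 0.0387). In KO, Peg3 fell by 0.52 (edgeR adjusted p = 0.00962) and Airn, the antisense RNA that crosses Igf2r, by 0.46 (edgeR adjusted p = 0.0427). Airn shares no exon bases with Igf2r. Without wild-type TAC 1, none of the wild-type calls of these 3 lists was kept: Klf15, Stat5b, Mest, Igf2bp2 and Cdkn1c had edgeR adjusted p-values of 0.266, 0.265, 0.214, 0.0674 and 0.456.

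Igf2 varied between sham libraries together with H19, the noncoding imprinted gene next to it. H19 was at 52.5, 2.99, 58.0 and 5.01 CPM in wild-type sham and at 39.2, 44.8, 3.10 and 18.3 CPM in KO sham. The 4 sham libraries with H19 at 39.2 CPM or more held the 4 highest Igf2 levels, 40.6 to 54.5 CPM. The H19 levels after TAC were 9.82 and 4.37 CPM in the wild-type libraries, while KO libraries had 8.96, 9.26, 14.8 and 6.41 CPM. It passed in no comparison, with log2 changes after TAC of −2.05 in wild type and −1.40 in KO. Plagl1, an imprinted transcription factor gene, was at 2.43 to 6.90 CPM in sham and 1.92 to 3.75 CPM after TAC and passed in none either. Over the 14 libraries, as deviations from group means of log2 CPM, Igf2 had r = 0.87 with H19 and 0.58 with Plagl1. In wild-type sham the 2 libraries high in H19 were 1 of 11 weeks and 1 of 10 weeks, while in KO sham both 11-week libraries (39.2 and 44.8 CPM) were above both 10-week libraries (3.10 and 18.3 CPM). The wild-type change of H19 without wild-type TAC 1 was −2.74.

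**Figure D5:**
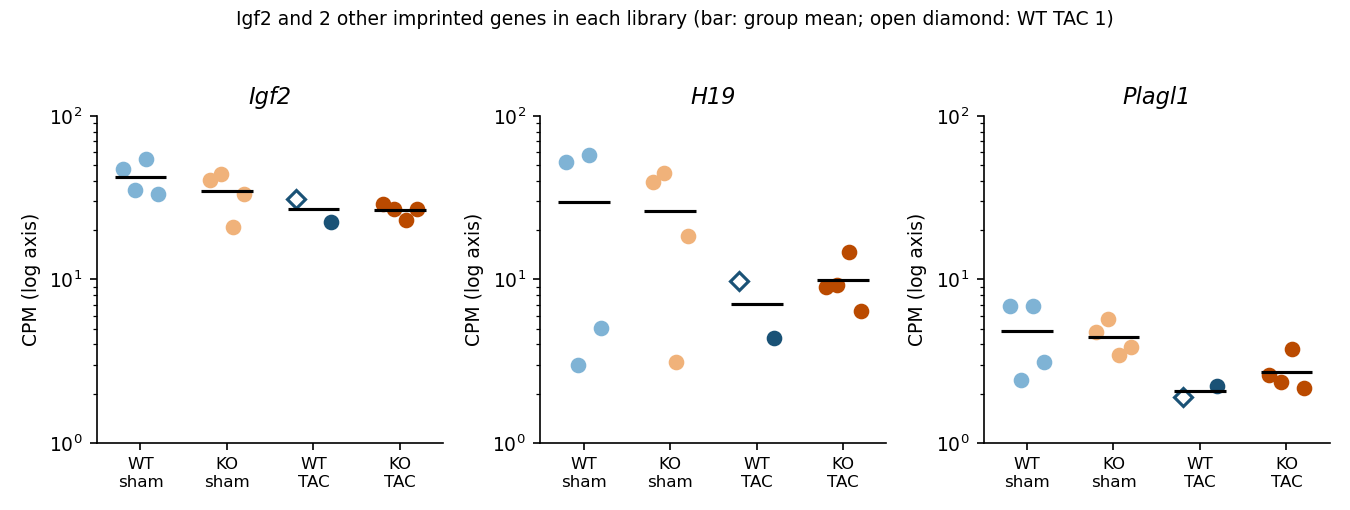
CPM of Igf2, H19 and Plagl1 on a log axis (vertical) in every library, by genotype and surgery (horizontal). Each point is a library, bars are group means, and the open diamond is the library labelled wild-type TAC 1. H19 in sham spans 2.99 to 58.0 CPM, and no TAC library exceeds 14.8 CPM.

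The share of reads in coding sequence varied little for Igfbp7 (92.1% to 94.2% over the 14 libraries) and Igfbp6 (93.3% to 98.0%). It varied more for others, at 10.1% to 16.9% for Igf1, 10.8% to 15.8% for Igf2, 20.1% to 31.5% for Igf1r and 6.27% to 9.34% for Igfbp5. For Igf2r it was 64.8% in wild-type sham 1, the library with the low Igf2r level, and 70.0% to 79.4% in the other 13. That library also had the lowest coding share over all genes, 63.8% against 65.6% to 67.2%. Counting coding reads alone, Igf1, Igfbp6 and Igfbp7 were still called after TAC in wild type and Igfbp6 and Igfbp7 in KO.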

How the data were processed

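Groups follow the labelled genotype and surgery. The authors deposited, per the file headers, raw counts of reads per gene, with the coding and untranslated parts and ambiguous reads as further counts. Tools listed in the submitters' processing notes are STAR 2.4.2a, Picard 2.10.3 and bcl2fastq 2.17.1.14, with the builds mm10 and GRCm38. The column layout is that of QoRTs. No source used here gives its settings, the annotation or the strand setting. Symbols and positions came from GENCODE M21, where 51719 of 51912 identifiers were found. Reads in no feature (10.7% to 19.0% per library) and ambiguous reads (1.43% to 1.59%) stayed out of library sizes and tests.

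Genes were filtered with filterByExpr (minimum count 10), scaled by TMM and tested by quasi-likelihood in edgeR 4.0.16 (R 4.3.3), in 1 fit of all 14 libraries with 1 coefficient per group, after the test was checked on simulated data. The Benjamini-Hochberg adjustment covers 15651 genes, and a gene is said to have risen, fallen or been called where the adjusted p was under 0.05. CPM are on TMM-scaled libraries, and levels per kilobase divide CPM by summed exon length. DESeq2 1.42.0, other scalings and filters, age, a clock gene score, coding reads and leaving out each library were alternatives. Replicate numbers were given in accession order and pair no libraries. The members and lists were chosen with earlier results of these data known. All 9 members are given in the TAC and genotype comparisons, from each list the called genes are named (up to 4 of smallest p per list and comparison), and likeness is given for the 3 genes of highest r with each called member. Akt1, Akt2, Fbxo32, Foxo1, Grb10, H19, Igf2os, Igfbp1, Insr, Irs1, Irs2, Mtor, Pappa, Plagl1 and Trim63 are named outside that rule, after their values were seen. A result for a listed gene is not reported here.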

Additional observations from a re-analysis of the deposited data

Results flagged for a closer look

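In 102 groups of 4 libraries, over 34 genes (the members, Clk3, H19, Plagl1, Airn and the called genes of the lists), the highest or lowest library was set against the rest, and 6 stood apart by Dixon's gap ratio. Chance gives about 1 such group in 20. Of the members, Igf2r was at 198.4 CPM in wild-type sham 1, where the other 3 libraries of the group had 279.7 to 294.5, and Igfbp6 was at 22.01 CPM in KO TAC 3, against 14.04 to 14.87 in the rest of its group. The same library, KO TAC 3, was high for Cdkn1c (36.35 CPM against 31.21 to 31.97) and for Htra1 (88.46 CPM against 72.73 to 73.41). Gabarapl1 was at 161.5 CPM in wild-type sham 3, against 139 to 140.2, and Rictor at 52.53 CPM in KO sham 2, against 43.08 to 44.42.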

How the results depend on the processing

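Over 1026 alternative values of the members' log2 changes, 983 kept direction and side of the threshold, 27 lost the call, 16 gained it and 0 reversed a called direction, while 38 values uncalled under both settings changed sign. These values cover 45 pairs of member and comparison, most of them uncalled in the main fit. Only a called pair could lose its call, so the 27 are not to be read against 1026. Leaving out a library that a comparison does not use acts only through the shared spread, the scaling, the filter on low counts and the p adjustment. Members called after TAC in wild type numbered 3, with 5 under no filter on low counts, 4 with DESeq2 (Igfbp5 added), 2 among 10-week libraries alone (Igfbp6 lost) and 3 to 4 on leaving out each library in turn. After TAC in KO 2 were called, with 0 among 10-week libraries alone, 1 with the clock gene score, and 2 in each of the 14 fits that left out a library. Between genotypes in sham 1 was called, with 2 under no filter, 0 with age as a covariate, 0 among 10-week libraries alone, 0 with coding reads only, 2 with only the groups compared, 2 with DESeq2, and 0 to 1 on leaving out each library. After TAC 2 were called between genotypes, with 4 under no filter, 0 among 10-week libraries alone, 1 with coding reads only, 0 with only the groups compared, and 0 to 3 on leaving out each library: 0 without wild-type TAC 1 or KO TAC 2, 1 without KO TAC 1. The interaction called 0, with 1 (Igf1) under no filter, 1 (Igf1) with DESeq2, and 0 to 1 on leaving out each library (1 without wild-type TAC 2). Between genotypes after TAC, DESeq2 called Igfbp6 as well. The 10-week fit holds fewer libraries, and for the other settings the cause was not tested. In the added fit of 2 terms, 3 to 5 members were called for surgery and 2 to 3 for genotype on leaving out each library. Over all genes, calls ranged on leaving out each library from 512 to 2224 (main 1912) after TAC in wild type, 797 to 2306 (main 2033) in KO, 8 to 531 (main 139) between genotypes in sham, 46 to 359 (main 232) after TAC and 0 to 32 (main 3) in the interaction. Other settings that moved these counts by over 1.5 times were, in the same order of comparisons, 10-week libraries alone (938, 15, 0, 120 and 0), coding reads only (1169, 1005, 92, 145 and 0), the clock gene score (366, 91 and 316, with 1 in the interaction), age (1158, 588 and, in the interaction, 0), no filter (387 in sham, 525 after TAC, 66 in the interaction), DESeq2 (608, 478 and 38 likewise), only the groups compared (1074 in wild type, 60 between genotypes after TAC) and library size alone (0 in the interaction). No paired analysis was possible because replicate numbers are in order of deposit and the labels name no shared litter, batch or day. Depth limits the genes with few counts, such as Igfbp2 and Adam12, and 2 wild-type TAC libraries, 1 of them in doubt, limit every comparison that uses that group.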
